A study of Mus musculus with 12 samples.

Results

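The genes described here are the members of the Reg family in the deposited gene table, namely Reg1, Reg2, Reg3a, Reg3b, Reg3d, Reg3g and Reg4. They were taken by gene name, with no measured value used in the choice, and they are 7 of 54532 genes. Reg proteins are small secreted proteins built on a C-type lectin fold. In the gut Reg3b and Reg3g are antibacterial lectins released by epithelial cells, and interleukin 22 and the cytokines that signal through gp130 and STAT3 are known inducers of their genes. Reg1 and Reg2 are best known from the exocrine pancreas, where acinar cells secrete them, and Reg4 marks secretory cells at the base of colonic crypts and some enteroendocrine cells.

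Mouse colon RNA was sequenced as 12 libraries, 3 in each of 4 groups, to ask how loss of STING in myeloid cells alters gene expression in colitis. Tmem173fl/fl mice, called WT in the labels, carry floxed alleles of Tmem173, the gene of STING, and no Cre. Tmem173fl/flLzym-Creert2 mice (spelled Lyz2-Creert2 in the study's methods) are named Tmem173iΔmye here. They carry in addition a tamoxifen-inducible Cre at Lyz2, a gene of macrophages, monocytes and neutrophils. The study also used dendritic cells grown from the bone marrow of these mice as STING knockout cells. Which cells of the colon lost the gene cannot be read from these libraries. Adult mice of all 4 groups, untreated controls included, had 5 tamoxifen injections, and the colitic groups were then given dextran sulfate sodium (DSS), an agent that damages colonic epithelium, for 7 days. The labels give the tissue as colon without naming a segment, and the colitic Tmem173iΔmye libraries carry the replicate numbers 1, 2 and 5.

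Library totals ran from 13823237 to 18718915 counts. Levels of a gene across libraries are given as CPM, the usual per-library count scale, here on library totals corrected by TMM, and levels of different genes as FPKM, which also divides by gene length. Tmem173 itself stood at 14.4 to 24.5 CPM in untreated Tmem173fl/fl, 14.6 to 21.3 in untreated Tmem173iΔmye, 37.7 to 44.0 in colitic Tmem173fl/fl and 23.8 to 47.8 in colitic Tmem173iΔmye mice, so that the genotypes overlapped in whole colon RNA. In colitic Tmem173iΔmye replicate 5 all 7 members lay within their untreated range. For Reg3a, Reg3b, Reg3d, Reg3g and Reg4 the library stood apart, since replicates 1 and 2 of its group were outside that range, whereas Reg1 and Reg2 were within it in replicate 2 as well. The main edgeR tests of members that use replicate 5 are given with and without it, and alternative settings are given with it. Libraries also differed in pancreatic acinar RNA, given beside Reg1, Reg2, Reg3a and Reg3d. Small intestine is another rich source of Reg proteins. Over 15 genes of its enterocytes and Paneth cells the summed level was 29.6 to 64.0 CPM in untreated Tmem173fl/fl, 38.1 to 78.7 in untreated Tmem173iΔmye, 86.0 to 144 in colitic Tmem173fl/fl and 35.6 to 94.1 CPM in colitic Tmem173iΔmye mice, with 4 to 9 of the 15 above 3 counts. The 6 Paneth cell defensins among them had at most 1 count in any library, and the list's highest count was that of Alpi, an alkaline phosphatase of enterocytes, except in colitic Tmem173iΔmye replicate 5, where Alpi was at 1.21 CPM. The part of such cells in the Reg levels was not tested.

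Of the 7 genes, 6 lie in a cluster on chromosome 6 (GRCm38) that spans 98.2 kb and holds no other gene of the table. In order along the chromosome these are Reg3b (ENSMUSG00000071356) at chr6:78370657-78373466, Reg3d (ENSMUSG00000068341) at chr6:78375874-78378865, Reg3a (ENSMUSG00000079516) at chr6:78380709-78383827, Reg2 (ENSMUSG00000023140) at chr6:78395623-78408106, Reg1 (ENSMUSG00000059654) at chr6:78422711-78428667 and, after a gap of 37.6 kb, Reg3g (ENSMUSG00000030017) at chr6:78466269-78468872. Reg3d and Reg3g are read from the minus strand and the others from the plus strand. Reg4 (ENSMUSG00000027876) is alone on chromosome 3 at chr3:98222156-98236748, plus strand. None of the 7 overlaps another annotated gene, so overlap with a neighbour does not blur their counts.

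**Figure D1:**
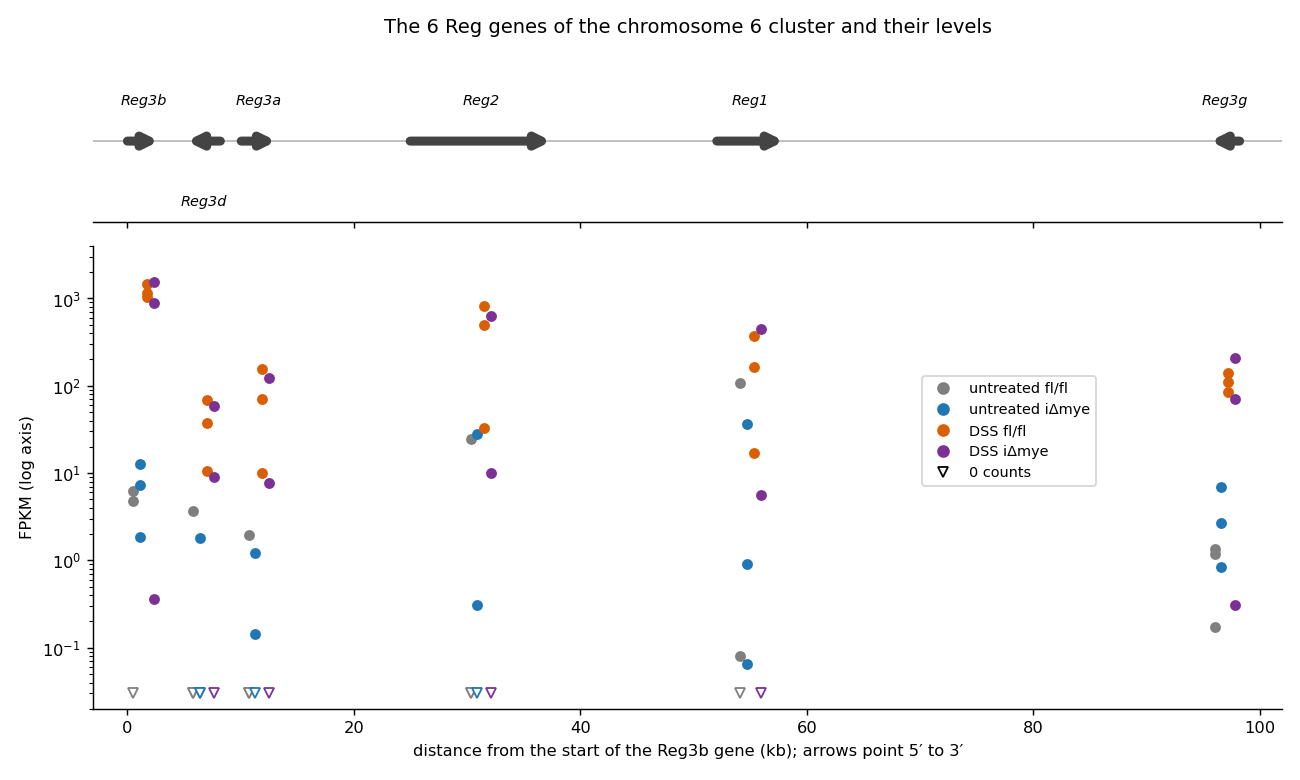
The upper panel places the 6 genes of the cluster by their distance in kb from the start of Reg3b, with arrows pointing from 5′ to 3′. The lower panel gives FPKM of each gene in each of 12 libraries on a log axis, coloured by group, with open triangles for libraries at 0 counts. Reg3b and Reg3g, at opposite ends of the cluster, share a pattern, with 5 of the 6 DSS libraries far above the untreated ones and the sixth among them.

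Just upstream of the RefSeq start, Reg3b and Reg3g were the most alike pair of the family, with 68.4% identity over the compared promoter windows. Over the coding sequence their identity was 75.9%. Reg1 and Reg2 shared 78.7% of coding positions, the most of any pair, but 56.8% of promoter positions. The promoters of both pairs are printed because these are the closest pairs of the family by coding sequence and moved together across libraries, as did Reg3a and Reg3d, whose coding identity is 65.4%. These are the 150 bases before the RefSeq start (GRCm38.p6), read 5′ to 3′ on the strand of the gene. Capitals mark TATAAA and, in Reg3b, TTCNNNGAA, the letters that STAT factors favour.
Reg3b, chr6:78370735-78370884, plus strand: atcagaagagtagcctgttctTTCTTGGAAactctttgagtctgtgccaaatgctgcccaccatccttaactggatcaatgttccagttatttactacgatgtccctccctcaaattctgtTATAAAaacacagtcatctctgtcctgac
Reg3g, chr6:78468875-78469024, minus strand: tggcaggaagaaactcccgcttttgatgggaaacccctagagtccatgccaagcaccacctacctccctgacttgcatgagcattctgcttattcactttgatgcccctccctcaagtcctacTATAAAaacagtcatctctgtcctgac
Reg1, chr6:78425833-78425982, plus strand: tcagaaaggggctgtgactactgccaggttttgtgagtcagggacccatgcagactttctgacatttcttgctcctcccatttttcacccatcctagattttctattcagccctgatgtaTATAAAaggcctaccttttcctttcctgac
Reg2, chr6:78405005-78405154, plus strand: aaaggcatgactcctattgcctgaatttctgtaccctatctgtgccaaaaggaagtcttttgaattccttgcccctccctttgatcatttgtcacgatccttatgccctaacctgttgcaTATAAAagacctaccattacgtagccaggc
The Reg3b and Reg3g windows end in the same 20 bases, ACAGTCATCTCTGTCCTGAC. Their longest shared stretch of coding sequence is the 35 bases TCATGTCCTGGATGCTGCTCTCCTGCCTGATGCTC, so that a read from it alone could not be told apart between the pair. Both strands of the 300 bases from 250 before to 50 after each start were searched. TTCNNNGAA was found in Reg3b, 129 bases before the start, and in Reg3d, 238 bases before it, as in 8.3% of 32851 such windows. TATAAA was found in Reg1, Reg2, Reg3b and Reg3g, against 13.6% of windows, and CACCTG in 5 members, namely Reg2, Reg3a, Reg3b, Reg3d and Reg4, against 20.2%. These are matches of letters and not measured sites. The last bases of the Reg1 and Reg3b windows lie in exons of other GENCODE transcripts, and the Reg1 and Reg2 windows lie in introns of longer transcripts. The Reg1, Reg2 and Reg3b windows thus fall within the annotated bounds of their own genes.

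With DSS the family changed in both directions in Tmem173fl/fl mice. Reg3b, Reg3g, Reg3a, Reg3d and Reg2 rose, Reg4 fell and Reg1 did not pass the test. A call required a log2 change of 1 or more in either direction and an adjusted p (Benjamini-Hochberg, edgeR quasi-likelihood test) below 0.05. By this rule 5 of 7 members were higher, against 14.9% of the 24102 genes tested, and 1 was lower, against 7.61%. The median log2 change over the 7 members was 5.79, against 0.03 over all genes tested. All 7 members passed the filter on low values. In whole tissue, fewer cells of a type and less RNA per cell cannot be told apart. The family as a whole made up 0.00550% to 0.0278% of all counts in the 6 untreated libraries and 0.157% to 0.351% in the 3 colitic Tmem173fl/fl libraries.

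**Figure D2:**
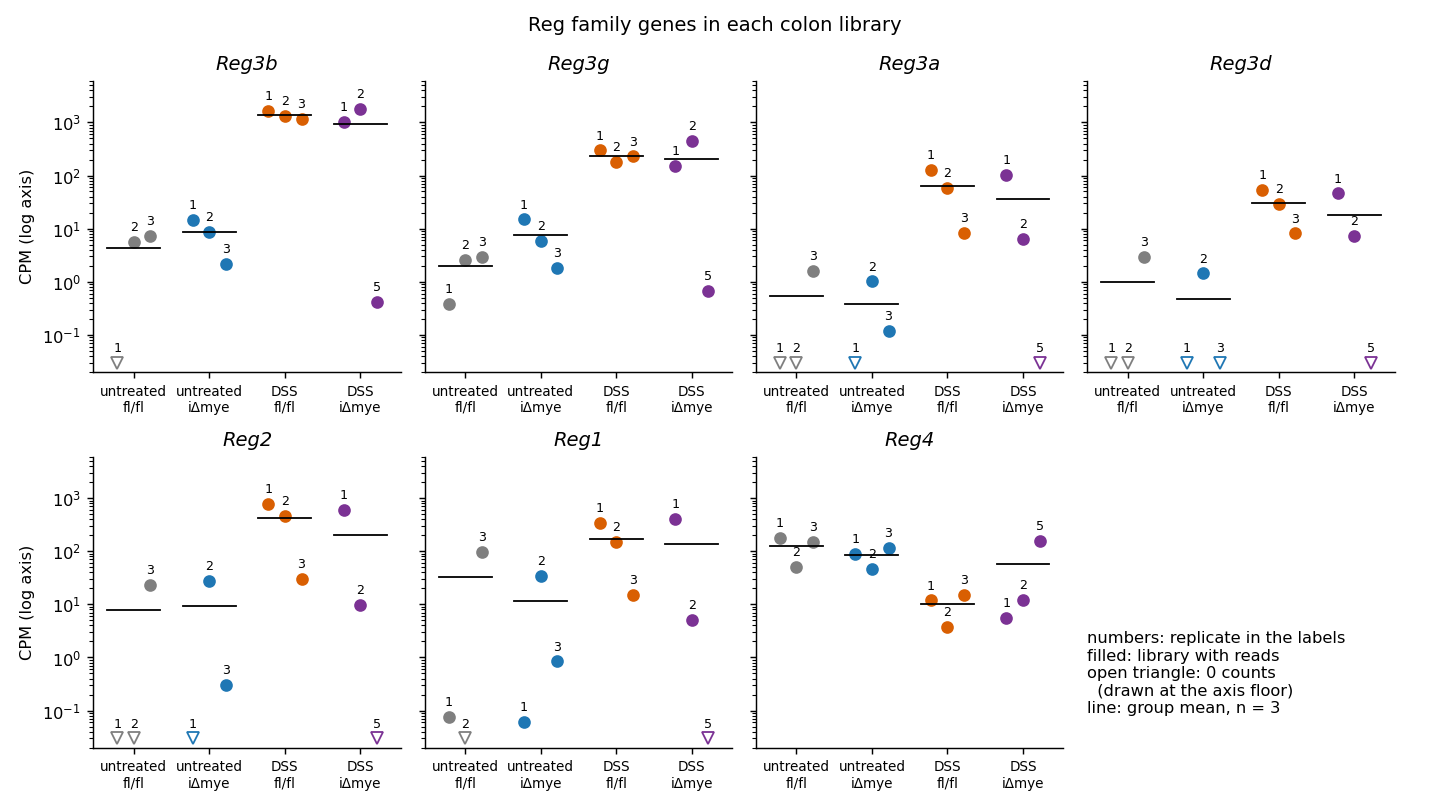
CPM of each member in each of 12 libraries on a log axis, with the replicate number of the labels at each point, a line at the mean of each group (n = 3) and open triangles for libraries at 0 counts. Reg3b and Reg3g lie high in 5 of 6 DSS libraries, Reg4 runs the other way, and colitic Tmem173iΔmye replicate 5 sits with the untreated libraries in every panel.

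Reg3b, an antibacterial lectin of the gut epithelium, was the most abundant member in each colitic Tmem173fl/fl library. Its level was 0, 5.69 and 7.20 CPM in untreated Tmem173fl/fl replicates 1, 2 and 3 and 1644, 1309 and 1177 CPM in the colitic ones. The lowest colitic library was far above the highest untreated one. Over all genes tested, 23.9% had every colitic library above every untreated one. The log2 change was 8.37 ± 0.98 (SE, n = 3 per group, edgeR adjusted p = 0.000136). Ordered by counts, Reg3b was at ranks 11619 and 11113 of all genes in untreated Tmem173fl/fl replicates 2 and 3 and had no counts in replicate 1. In the colitic Tmem173fl/fl libraries it was between ranks 27 and 41 and supplied 50.7%, 59.6% and 79.4% of the family's counts. The untreated library at 0 counts allows up to 0.227 CPM.

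Reg3g, the second antibacterial lectin, rose from 0.379, 2.57 and 2.94 CPM to 296, 179 and 228 CPM. Every colitic library was above every untreated one. Its log2 change of 6.93 ± 0.51 (SE, edgeR adjusted p = 8.13e-06) had the smallest error and the smallest adjusted p of the family.

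Reg3a and Reg3d, further members of the Reg3 group, were close to absent from untreated tissue. Reg3a had 0, 0 and 1.63 CPM in untreated and 128, 57.9 and 8.24 CPM in colitic Tmem173fl/fl mice. Reg3d had 0, 0 and 2.94 CPM in untreated and 53.8, 29.2 and 8.10 CPM in colitic mice. Neither gene overlapped between the groups, and replicate 3 was the lowest colitic library for both. The log2 changes were 6.85 ± 1.18 (SE, adjusted p = 0.00143) for Reg3a and 4.93 ± 1.08 (SE, adjusted p = 0.00538) for Reg3d in edgeR. Both sizes rested on untreated replicate 3, without which the remaining untreated libraries had 0 counts of either gene. Against the floor of those libraries, the mean colitic level was at least 300.7-fold higher for Reg3a and at least 141-fold higher for Reg3d, and both kept their calls (adjusted p = 0.00645 and 0.00245).

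Reg2, an acinar product, stood at 0, 0 and 23.6 CPM in untreated and at 774, 470 and 30.4 CPM in colitic Tmem173fl/fl mice. The groups did not overlap, but the highest untreated library came close to the lowest colitic one. Its log2 change was 5.79 ± 1.70 (SE, edgeR adjusted p = 0.0235), the weakest call of the family. The call was lost without untreated replicate 1 (5.21, adjusted p = 0.0549), in DESeq2 (5.80, 0.124), in a single fit of 12 libraries (5.74, 0.0985), in limma with a pseudocount of 0.1 (8.57, 0.052) and with the replicate block (8.57, 0.0517), while the log2 change stayed at least as large as 5.21 in these. Without untreated replicate 3, which leaves 0 counts in the untreated libraries, Reg2 was at least 1975-fold higher than their floor. DESeq2 also lost Reg3d (adjusted p = 0.0892).

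Reg1, its neighbour, stood at 0.0757, 0 and 98.1 CPM in untreated and at 336, 147 and 15.2 CPM in colitic Tmem173fl/fl mice. Untreated replicate 3 exceeded colitic replicate 3, so that the groups overlapped. The log2 change was 2.39 ± 1.64 (SE, edgeR adjusted p = 0.293) and was not called. Without untreated replicate 3, which leaves untreated libraries with 0 and 1 counts, Reg1 was called higher (adjusted p = 0.00359), so this library decided the call. It was also called when libraries were scaled to epithelial genes (log2 change 3.45, adjusted p = 0.000558), a scaling that moved the median of all genes up by 1.15 and called 11649 genes against 5422.

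Levels of Reg1 and Reg2 moved with pancreatic acinar RNA. The summed counts of 9 acinar enzyme genes, the proteases, elastases, carboxypeptidases and lipases Prss2, Cela2a, Cela3b, Cpa1, Cpb1, Ctrb1, Pnlip, Pnliprp1 and Cel, were 3, 9 and 56029 in untreated Tmem173fl/fl and 9, 32366 and 481 in untreated Tmem173iΔmye replicates 1 to 3. They were 175654, 106105 and 8542 in colitic Tmem173fl/fl replicates 1 to 3 and 163603, 1413 and 11 in colitic Tmem173iΔmye replicates 1, 2 and 5. Over a wider list of 25 pancreas genes, 7 to 24 were above 3 counts in a library, and their summed level ran from 173 to 4891 CPM in untreated and from 781 to 11962 CPM in colitic Tmem173fl/fl mice, with 3 of the 22 tested called higher, against 14.9% of all genes, and none lower in edgeR. In Tmem173iΔmye mice it ran from 261 to 2756 CPM in untreated and from 173 to 15056 CPM in colitic libraries, with none of the 22 called. In the 4 libraries with at most 11 acinar counts, Reg1 had at most 1 count and Reg2 had 0.

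The members differed once their counts were set against the acinar counts of the same library, which was done in the 7 libraries with at least 1000 acinar counts, 2 untreated and 5 with DSS. For each 1000 acinar counts there were 17.4 to 28.0 Reg1 counts in the untreated libraries and 26.1 to 58.0 in the DSS libraries, which overlapped. Reg2 ran from 6.73 to 14.2 in the untreated and from 51.6 to 111 in the DSS libraries. Reg3a ran from 0.464 to 0.525 and from 8.75 to 72.9, and Reg3d from 0.742 to 0.839 and from 3.96 to 82.1. Reg2, Reg3a and Reg3d thus had more counts per acinar count in each of the 5 DSS libraries than in either untreated one, and Reg1 did not. With the log2 acinar level as a covariate in edgeR, an alternative chosen after seeing the data, the log2 change in Tmem173fl/fl mice was 0.13 for Reg1 (adjusted p = 0.749), 3.54 for Reg2 (adjusted p = 0.000197), 4.82 for Reg3a (adjusted p = 9.34e-05) and 3.18 for Reg3d (adjusted p = 0.000504). Under the same covariate Reg3b changed by 7.56 and Reg3g by 6.36, and both kept their calls.

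**Figure D3:**
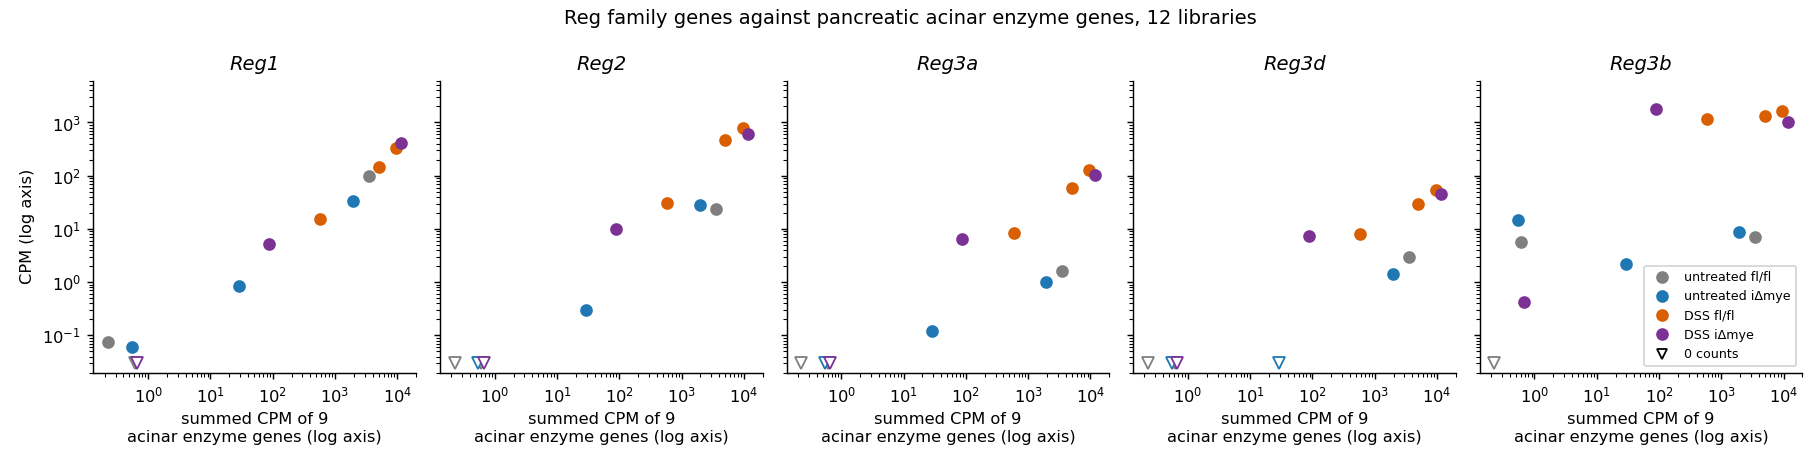
CPM of Reg1, Reg2, Reg3a, Reg3d and Reg3b against the summed CPM of 9 acinar enzyme genes in the 12 libraries, on log axes, coloured by group, with open triangles for libraries at 0 counts. Reg1 rises with the acinar genes in treated and untreated libraries alike. For Reg2, Reg3a and Reg3d, 5 of 6 DSS libraries have more counts per acinar count than the 2 untreated libraries with at least 1000 acinar counts. Colitic Tmem173fl/fl replicates 1 and 2 and Tmem173iΔmye replicate 1 have more acinar CPM than any untreated library. Colitic Tmem173iΔmye replicate 5 is at 0 counts of Reg2, Reg3a and Reg3d, and Reg3b is over 1000 CPM in the other 5 DSS libraries.

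Reg4 was the only member that fell in Tmem173fl/fl mice, where Reg1 was not called and the other 5 members rose. Its level was 176, 50.2 and 150 CPM in untreated and 11.9, 3.69 and 15.1 CPM in colitic libraries, with no overlap. Over all genes tested, 25.4% had every colitic library below every untreated one. The log2 change of -3.57 ± 0.55 (SE, edgeR adjusted p = 0.000759) took it from a mean of 126 ± 66.6 to 10.2 ± 5.89 CPM (SD, n = 3 each). Reg4 made up 52.4% to 99.7% of the family's counts in untreated Tmem173fl/fl mice and 0.168% to 1.02% in colitic ones. Epithelial RNA was lower in the same libraries, where 6 of 13 epithelial genes were called lower and none higher, and the summed level of the 13 was 13778 to 17276 CPM in untreated and 5167 to 8869 CPM in colitic Tmem173fl/fl libraries. The 12 genes of a goblet and deep crypt secretory list, all 12 tested, included 6 called lower and none called higher. Of 10 enteroendocrine genes, all 10 tested, 3 were called higher and 1 lower, with a list median of 0.08, and their summed level was 226 to 285 CPM in untreated and 260 to 396 CPM in colitic Tmem173fl/fl libraries. The part of these cell types in the Reg4 level was not tested. When libraries were scaled to the epithelial genes the log2 change of Reg4 was -2.56 (adjusted p = 6.49e-08).

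The DSS libraries also differed from the untreated ones in genes of position along the gut, which were singled out after their values were seen. Hoxb13, a gene of the most posterior gut, was at 139 to 252 CPM in untreated and at 0.613 to 4.93 CPM in colitic Tmem173fl/fl mice, a log2 change of -6.45 (edgeR adjusted p = 6.56e-05). Hoxb6, expressed further forward, was at 1.67 to 8.12 CPM in untreated and at 24.7 to 33.0 CPM in colitic mice (log2 change 2.98, edgeR adjusted p = 0.00142). In colitic Tmem173iΔmye replicates 1, 2 and 5 Hoxb13 was at 28.7, 21.1 and 196 CPM and Hoxb6 at 22.3, 22.7 and 2.49 CPM, so that replicate 5 lay in the untreated range for both. Hoxd13, a further posterior gene, was at 3.83 to 88.0 CPM in the 6 untreated libraries, 1.77 to 7.98 CPM in the 5 other DSS libraries and 183 CPM in replicate 5, above the untreated range. The part of colon position in the Reg levels was not tested.

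In Tmem173iΔmye mice the DSS comparison rested on replicate 5. In edgeR no member was called over the 3 libraries, against 2.08% of genes tested (1.48% higher and 0.597% lower), and none separated the groups, against 12.1% of genes with all colitic libraries higher and 9.41% with all lower. However, 4 members (Reg3a, Reg3b, Reg3d and Reg3g) had an unadjusted p under 0.05, as did 3748 genes in all, and DESeq2 called 1 member, Reg3b. Without replicate 5, an alternative that was planned, edgeR called Reg3a, Reg3b, Reg3d and Reg3g higher and Reg4 lower, 5 of 7 members against 6.13% of genes.

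Reg3b was at 14.7, 8.62 and 2.16 CPM in untreated Tmem173iΔmye replicates 1, 2 and 3. In the colitic group it was at 1006 and 1806 CPM in replicates 1 and 2 and at 0.425 CPM in replicate 5. Replicates 1 and 2 bracketed the 3 colitic Tmem173fl/fl libraries, and replicate 5 was below every untreated Tmem173iΔmye library. The log2 change was 6.78 ± 1.81 (SE, edgeR adjusted p = 0.0939) with replicate 5 and 7.39 ± 0.62 (SE, adjusted p = 6.9e-05) without it.

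Reg3g followed the same order, with 14.9, 5.87 and 1.804 CPM in untreated and 150, 451 and 0.668 CPM in colitic Tmem173iΔmye replicates 1, 2 and 5. Its log2 change was 4.73 ± 1.46 (SE, edgeR adjusted p = 0.144) with replicate 5 and 5.34 ± 0.68 (SE, adjusted p = 0.000815) without it. Leaving out each library in turn gave 3.34 to 5.69. Across all 12 libraries Reg3b and Reg3g had a Pearson r of 0.99 on log2(FPKM + 0.1), given as a description, since the libraries fall into groups and share their scaling.

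Reg3a was at 0, 1.02 and 0.120 CPM in untreated and at 102.1, 6.41 and 0 CPM in colitic Tmem173iΔmye mice, with a log2 change of 6.54 ± 1.87 (SE, edgeR adjusted p = 0.118) with replicate 5 and 7.17 ± 1.10 (adjusted p = 0.00276) without it. Reg3d was at 0, 1.44 and 0 CPM in untreated and at 46.1, 7.22 and 0 CPM in colitic mice (log2 change 5.18 ± 1.73, edgeR adjusted p = 0.177, and 5.81 ± 1.05, adjusted p = 0.00672, without replicate 5). Replicate 1, the higher of the remaining colitic libraries for both genes, had 163603 acinar counts and replicate 2 had 1413. Without replicate 1 the log2 changes were 3.06 for Reg3a and 2.90 for Reg3d, and neither was called.

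Reg2 was at 0, 27.6 and 0.301 CPM in untreated and at 601, 9.77 and 0 CPM in colitic Tmem173iΔmye mice, and Reg1 was at 0.0607, 33.7 and 0.842 CPM in untreated and at 409, 5.10 and 0 CPM in colitic mice. Both overlapped between the groups, and neither was called with replicate 5 (log2 change 4.46 for Reg2 and 3.58 for Reg1, edgeR adjusted p = 0.375 and 0.459) or without it (5.09 and 4.22, adjusted p = 0.0947 and 0.142). With the acinar level as a covariate and replicate 5 kept in, edgeR called Reg2, Reg3a, Reg3b and Reg3d higher, and 776 genes in all against 501 without the covariate.

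Reg4 was at 88.2, 47.1 and 114 CPM in untreated and at 5.63, 12.3 and 155 CPM in colitic Tmem173iΔmye mice. Replicates 1 and 2 were below all 6 untreated libraries and replicate 5 was within their range. The log2 change was -0.53 ± 0.92 (SE, edgeR adjusted p = 0.837) with replicate 5 and -3.19 ± 0.41 (SE, adjusted p = 0.000962) without it.

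**Figure D4:**
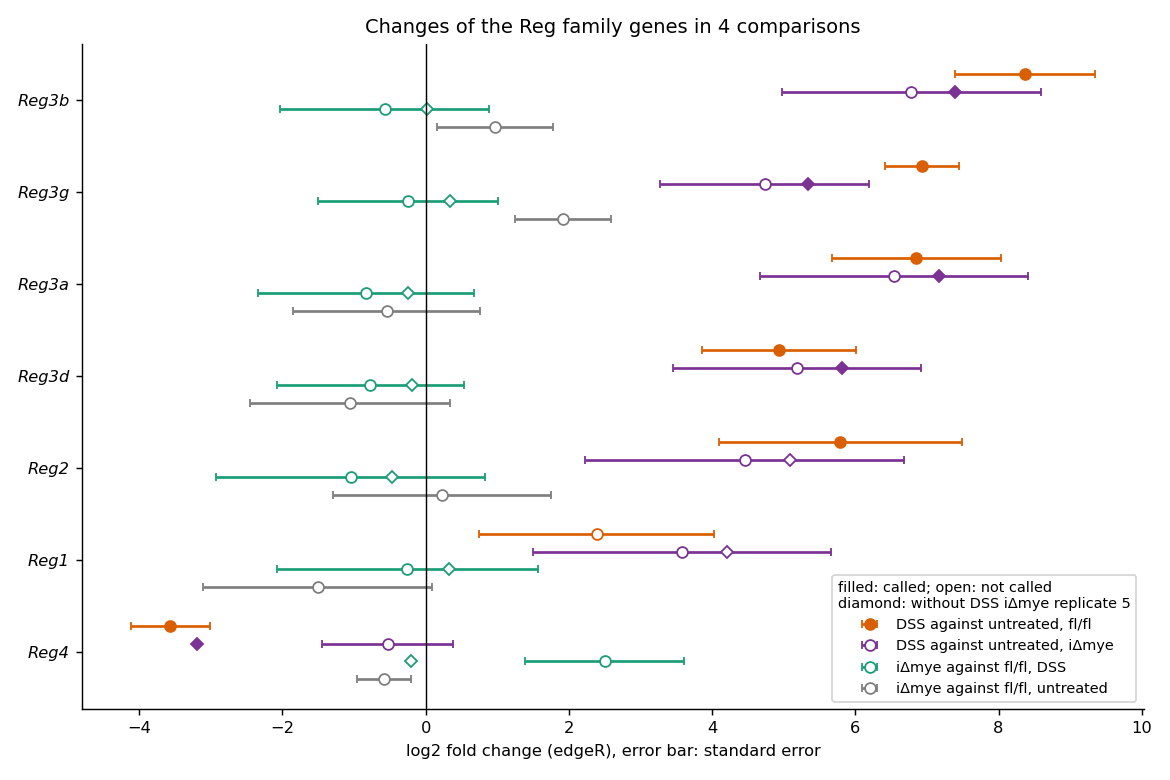
Log2 fold changes from edgeR for each member in 4 comparisons, with circles for 3 libraries per group, bars for standard errors, filled symbols for calls and diamonds for fits without colitic Tmem173iΔmye replicate 5. Without replicate 5 the DSS changes of Tmem173iΔmye mice are 7.39 for Reg3b, 5.34 for Reg3g, 4.22 for Reg1 and -3.19 for Reg4, beside 8.37, 6.93, 2.39 and -3.57 in Tmem173fl/fl mice.

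When the genotypes were compared in colitis, edgeR called no member, against 2.81% of genes tested (0.822% higher and 1.99% lower in Tmem173iΔmye mice). The groups overlapped for every member, whereas 12% of genes had all Tmem173iΔmye libraries higher and 14.8% all lower. No member had an unadjusted p under 0.05 there, whereas 4868 genes did, and DESeq2 called no member. Reg3b had a mean of 938 ± 905 CPM in colitic Tmem173iΔmye and 1376 ± 241 CPM in colitic Tmem173fl/fl mice (SD, n = 3 each), a log2 difference of -0.57 ± 1.46 (SE, adjusted p = 0.867). Without replicate 5 the difference was 0.01 ± 0.29 (SE, adjusted p = 0.984). Reg3g differed by -0.25 ± 1.26 (SE, adjusted p = 0.939), and by 0.34 ± 0.42 without replicate 5. Errors of this size with replicate 5 leave room for differences of several fold in either direction.

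On the log2 scale and with replicate 5, Reg4 had the widest gap between colitic genotypes, 57.7 ± 84.6 against 10.2 ± 5.89 CPM (SD, n = 3 each), with a log2 difference of 2.50 ± 1.11 (SE, edgeR adjusted p = 0.251). It rested on replicate 5, without which it was -0.20 ± 0.57 (SE, adjusted p = 0.886). Reg1, Reg2, Reg3a and Reg3d had log2 differences of -0.26, -1.05, -0.83 and -0.77, with standard errors of 1.31 to 1.88, and of 0.33, -0.46, -0.25 and -0.19 without replicate 5. With the acinar covariate the differences of 6 members, all but Reg2, changed sign, and none was called. The summed level of the 13 epithelial genes was 11376 to 13304 CPM in colitic Tmem173iΔmye and 5167 to 8869 CPM in colitic Tmem173fl/fl mice. Of the 13, edgeR called 1 higher and none lower, and 12 were not called. Scaling to these genes moved the median of all genes by -0.85 in this comparison, gave log2 differences of -1.46 for Reg3b, -1.12 for Reg3g and 1.78 for Reg4, and called no member.

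Without DSS no gene was called between genotypes in edgeR, which is 0% of genes tested, while 720 genes had an unadjusted p under 0.05 and DESeq2 called 3. Reg3g was the member among the 720, at 1.97 ± 1.39 CPM without Cre and 7.51 ± 6.69 CPM with it (SD, n = 3 each). Its log2 difference was 1.92 ± 0.67 (SE, unadjusted p = 0.0126, adjusted p = 1 in edgeR), and the groups overlapped, as they did for each member, against 3.66% of genes with all Tmem173iΔmye libraries higher and 3.68% with all lower. Reg3b differed by 0.97 ± 0.81 and Reg4 by -0.59 ± 0.38 (SE), with adjusted p = 1 for both in edgeR.

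The difference in the DSS response between genotypes was called for no member in edgeR or DESeq2, against 2.55% of genes tested in edgeR (0.934% higher and 1.61% lower). Reg4 came nearest, with a log2 difference of 3.10 ± 1.30 (SE, unadjusted p = 0.0315, adjusted p = 0.226 in edgeR, all 12 libraries), which was 0.40 (adjusted p = 0.842) without replicate 5. For Reg3b the difference was -1.52 ± 1.99 and for Reg3g -2.13 ± 1.71 (SE, adjusted p = 0.732 and 0.549 in edgeR), and without replicate 5 these were -0.94 and -1.56 (adjusted p = 0.726 and 0.438). For Reg1, Reg2, Reg3a and Reg3d the log2 differences were 1.24, -1.29, -0.26 and 0.29, with standard errors of 2.25 to 3.01. Without replicate 5 they were 1.83, -0.69, 0.33 and 0.89.

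Per unit of length the order of the family changed with DSS. Reg4 led in untreated Tmem173fl/fl mice with 120 ± 63.5 FPKM (SD, n = 3), followed by Reg1 at 35.5 ± 61.4 and Reg2 at 8.10 ± 14.03 FPKM, whose means came from replicate 3, and by Reg3b at 3.68 ± 3.25 FPKM. In colitic Tmem173fl/fl mice Reg3b led with 1218 ± 212 FPKM, ahead of Reg2 at 450 ± 397, Reg1 at 186 ± 180, Reg3g at 112 ± 28.1, Reg3a at 79.1 ± 73.7, Reg3d at 39.2 ± 29.5 and Reg4 at 10.1 ± 5.86 FPKM. Reg3b stood above every other member in each colitic library. From Reg2 to Reg3d the ranges of neighbours in this order overlapped, although Reg2 was above Reg1 in each library. Per base of coding mRNA, in place of the longer gene length behind FPKM, Reg3g at 307 ± 77.2 stood ahead of Reg1 at 218 ± 212 (SD, n = 3). In colitic Tmem173iΔmye mice the order by mean was Reg3b, Reg2, Reg1, Reg3g, Reg4, Reg3a and Reg3d, with each SD near or above its mean. Without replicate 5 Reg4 moved from the fifth place to the last, at a mean of 8.67 FPKM.

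The balance between the antibacterial lectins shifted toward Reg3b. The ratio of Reg3b to Reg3g FPKM was 4.09 and 4.53 in untreated Tmem173fl/fl replicates 2 and 3 and 1.83, 2.72 and 2.22 in untreated Tmem173iΔmye mice. It was 10.3, 13.5 and 9.56 in colitic Tmem173fl/fl mice, 12.4 and 7.42 in colitic Tmem173iΔmye replicates 1 and 2, and 1.18 in replicate 5, where it rested on 7 and 11 counts. In 5 DSS libraries the ratio was above that of each untreated library with a value. The gene length behind the deposited FPKM is 2114 bases for Reg3g, because it takes in a transcript with a retained intron, against 771 bases for the coding mRNA, and 1142 against 783 bases for Reg3b. Per base of coding mRNA the ratio was 5.47, 7.19 and 5.08 in colitic and 2.18 and 2.41 in untreated Tmem173fl/fl mice, lower than on the FPKM scale by the same factor in every library.

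The genes most like each member across the 12 libraries, by Pearson r on log2(FPKM + 0.1) among 14552 genes, fell into 4 sets. For Reg1 these were the acinar genes Pnliprp1 (r = 0.997), Cela3b and Try5, and for Reg2 they were Pnliprp1 (r = 0.983), Try5 and Amy2b. Reg3a and Reg3d were led by Cckar, a cholecystokinin receptor of the pancreas and gallbladder, at r = 0.975 and 0.969, followed by Ms4a6c and Epb41l2 for Reg3a and by Tmem71 and Epb41l2 for Reg3d. Cckar was not confined to libraries with acinar RNA, since it had 23 to 58 counts in the 3 untreated libraries with 3 to 9 acinar counts. Reg3b and Reg3g were led by Slc51a, a subunit of the basolateral bile acid transporter of enterocytes, at r = 0.969 and 0.970, with Mapre3 among the first 3 of both. Slc51a was at 0.0757, 2.17 and 0.376 CPM in untreated and at 24.8, 44.5 and 45.9 CPM in colitic Tmem173fl/fl mice, and at 17.7, 31.5 and 0.121 CPM in colitic Tmem173iΔmye mice. Reg4 was led by Tspan3 (r = 0.970), Dok7 and Stmn1, and ran against Reg3b with r = -0.92. All of these points share libraries and acinar or group differences, and no p is given.

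Genes of the signals that are known to induce Reg3 lectins changed in Tmem173fl/fl mice. Over all genes tested 14.9% were higher and 7.61% lower, with a median log2 change of 0.03. Of 12 cytokine genes tested 5 rose and 1 fell, with a list median of 1.91. Il11, Il6 and Osm, cytokines that signal through gp130, rose by log2 8.69 ± 0.86, 7.99 ± 0.67 and 5.51 ± 0.33 (SE, edgeR adjusted p = 4.68e-05, 1.78e-05 and 2.54e-06). Il1b and Lif rose by 2.93 and 1.70, and Il22ra2, the soluble decoy receptor of interleukin 22, fell by 2.89. Il22 itself was not called, with 0, 0 and 0.250 CPM in untreated and 0.542, 0.426 and 0.204 CPM in colitic libraries (adjusted p = 0.153), and was close to the floor of 3 counts. In colitic Tmem173iΔmye mice Il22 was at 2.28 and 1.87 CPM in replicates 1 and 2 and at 0.182 CPM in replicate 5, and its log2 change with DSS was 4.03 (edgeR adjusted p = 0.0937) with replicate 5 and 4.59 (adjusted p = 0.00533) without it. Of 17 receptor and signalling genes 7 rose and 1 fell (list median 0.77), among them Socs3, a STAT3 target, by 4.13 ± 0.20, Osmr by 2.76, Il6ra by 2.22, Il6st, which encodes gp130, by 1.92 and Stat3 by 1.06. Of 20 other epithelial defence genes 9 rose and 6 fell (list median 0.35), with Saa3 up by 8.48, Lcn2 by 8.44, and Ang4, an antimicrobial ribonuclease of crypt secretory cells, down by 5.46. Neutrophil and stromal genes rose in the same libraries. Of 8 neutrophil genes tested 7 were called higher, with the sum of the list of 9 at 46.2 to 105 CPM in untreated and 246.5 to 444 CPM in colitic Tmem173fl/fl mice, and of 8 stromal genes 5 were called higher, with sums of 2817 to 3543 and 8345 to 10318 CPM. Ly6g supplied much of the neutrophil sums, with 1332 of 1392 counts in untreated and 4134 of 8199 in colitic Tmem173fl/fl replicate 1. The part of neutrophils and stroma in the cytokine and defence genes was not tested.

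Between colitic genotypes 4 of the 12 cytokine genes, 1 of the 17 receptor and signalling genes and 8 of the 20 defence genes were called in edgeR, against 2.81% of genes tested. Il11, Il6 and Osm were lower in colitic Tmem173iΔmye mice by log2 3.27 ± 0.59, 2.36 ± 0.46 and 2.09 ± 0.43 (SE, edgeR adjusted p = 0.02999, 0.0346 and 0.0406), and Il18 was higher by 2.004, or by 1.37 without replicate 5. Lcn2, Saa3, S100a8, S100a9 and Camp were lower, with Lcn2 at 858, 1019 and 425 CPM in colitic Tmem173fl/fl and at 83.2, 86.8 and 14.3 CPM in colitic Tmem173iΔmye mice. Pla2g2a, Nos2 and Lypd8 were higher, although Pla2g2a had only 7, 3 and 10 counts in colitic Tmem173fl/fl replicates 1, 2 and 3. S100a8, S100a9 and Camp are genes of neutrophils. Over 9 neutrophil genes, Camp among them, the summed level was 246.5 to 444 CPM in colitic Tmem173fl/fl and 141 to 274 CPM in colitic Tmem173iΔmye mice. Ly6g alone supplied 4134 of 8199, 2010 of 5206 and 2095 of 4622 counts in colitic Tmem173fl/fl replicates 1, 2 and 3. It supplied 3047 of 3848, 1622 of 2267 and 3938 of 4125 in colitic Tmem173iΔmye replicates 1, 2 and 5. Without replicate 5 its log2 difference was 0.05 (edgeR adjusted p = 0.968). Of the 8 neutrophil genes tested, 4 were called lower (5 without replicate 5) and none higher. Of 8 stromal genes 4 were called lower as well (3 without replicate 5), with sums of 8345 to 10318 and 3379 to 4726 CPM. Of 9 colonocyte genes 3 were called higher and none lower, and of 13 epithelial genes 1 was called higher and none lower. Here too the part of these cells was not tested. Without replicate 5 all 8 of these defence genes were called again, as were 2 of the 4 cytokine genes, Osm and Il18, against 2.12% of genes tested. Il6 and Il11 kept log2 differences of -2.26 and -3.01 (adjusted p = 0.0806 and 0.0681). In replicate 5 Il6 was at 4.01 CPM, beside 5.42 and 4.67 CPM in replicates 1 and 2. Osm was at 1.58 CPM in replicate 5, beside 4.99 and 4.17 CPM. All of these values were above the 6 untreated libraries, as were those of Il11, while Reg3b and Reg3g of replicate 5 were within the untreated range. Other cytokine genes went the way of Reg3b. Il1b, Lif, Il22 and Il12b were within the untreated range in replicate 5 and above it in replicates 1 and 2, with Il22 and Il12b near the floor in replicate 5.

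**Figure D5:**
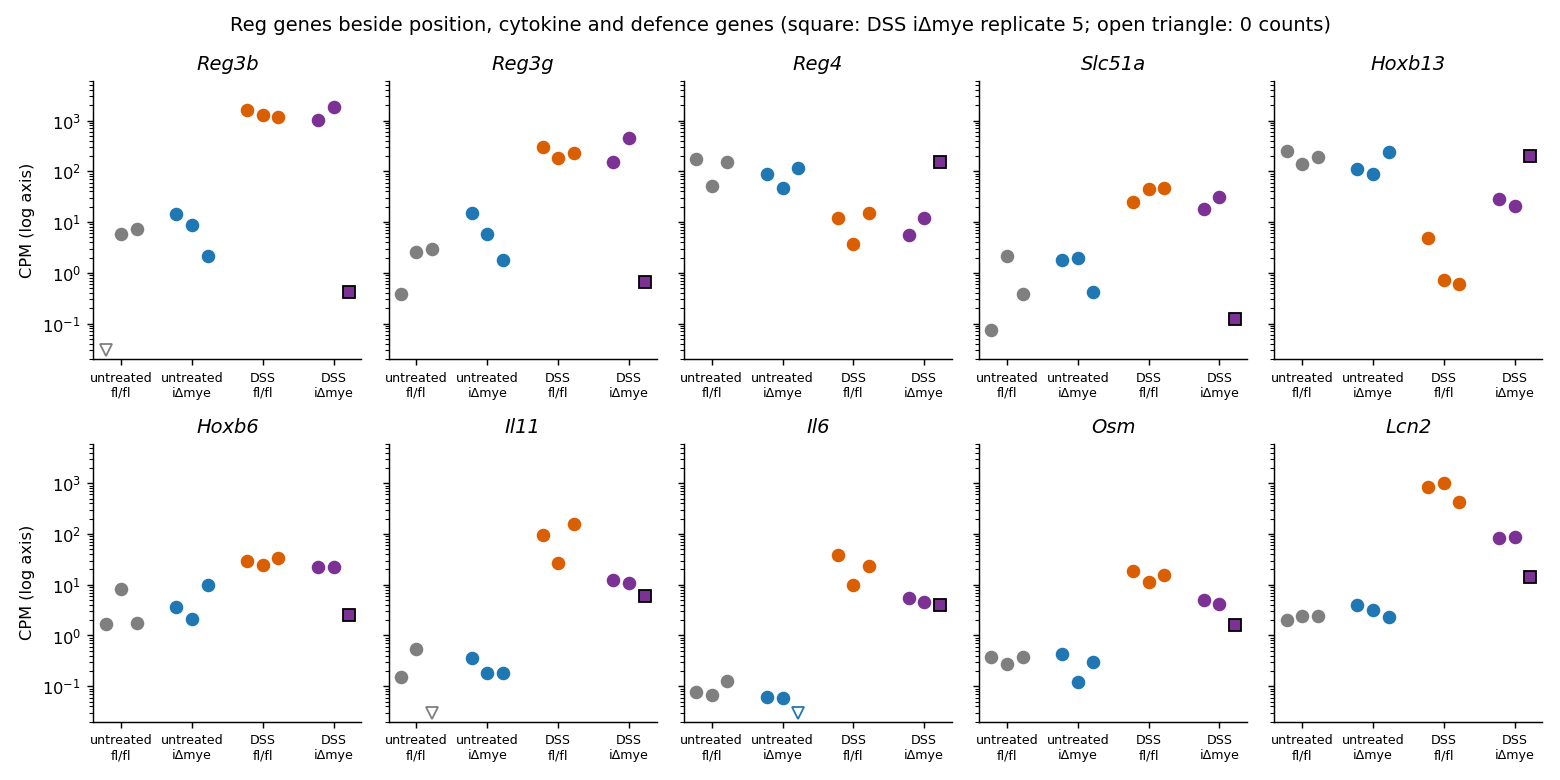
CPM on a log axis in each of 12 libraries for Reg3b, Reg3g, Reg4, Slc51a, Hoxb13, Hoxb6, Il11, Il6, Osm and Lcn2, with squares for colitic Tmem173iΔmye replicate 5 and open triangles for libraries at 0 counts. Replicate 5 sits with the untreated libraries for the first 6 genes and with the DSS libraries of its genotype for Il11 and Il6.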

How the data were processed

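The members and gene lists were chosen with earlier results of these data known. The authors deposited whole-number counts per gene and FPKM values for 12 libraries (polyA RNA, NEBNext Ultra kit). The submitters' processing notes name CASAVA 1.8, fastp, HISAT2 2.0.5, featureCounts 1.5.0-p3 and DESeq2 1.20.0 on GRCm38. Use of strand is not given in the sources used here. Columns with group means, fold changes and p-values of the authors' own comparisons were not used. Each library's group and number were read from its title. Since the labels do not state that libraries are separate animals, p-values measure the spread between these samples.

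Here, counts were tested with edgeR 4.0.16 (R 4.3.3, glmQLFit and glmQLFTest, TMM scaling) on the 24102 genes that reached 0.1 FPKM in 3 or more libraries, with Benjamini-Hochberg adjustment over all of them. Each comparison was fitted on its own groups, and the difference in DSS response on all 12 libraries. The SE is the size of the log2 change over the square root of F. The floor of detection was 3 counts per library, which covers counting error only. An exact permutation test of 3 against 3 cannot go below p = 0.1 and was not used. Alternatives were DESeq2 1.42.0, limma 3.58.1 on log2(FPKM + 0.1) and log2(FPKM + 1), other scalings, filters and call rules, a replicate block, an acinar covariate and leaving out each library. The fits were tested on simulated data. Named genes were every member, called genes of 3 pathway lists (at most 8 per list) and, for each member with a mean FPKM of at least 1, the 3 most similar genes. Hoxb13, Hoxb6, Hoxd13, Alpi, Il22, Nos2, Lypd8, Pigr, the 9 acinar genes, the acinar covariate and the coding-mRNA lengths were chosen after seeing values. Coordinates match GENCODE M21, promoters are from RefSeq (GRCm38.p6), and all 7 members matched.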

Additional observations from a re-analysis of the deposited data

Results flagged for a closer look

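No member of the Reg family met a rule for a closer look. Of the 12 cytokine, 17 receptor and signalling and 20 defence genes tested, 6 had a DSS response that differed between genotypes in edgeR over all 12 libraries, against 2.55% of all genes tested (2.24% without colitic Tmem173iΔmye replicate 5). The log2 difference (Tmem173iΔmye minus Tmem173fl/fl) was -4.73 for Saa3, -4.09 for Lcn2, 5.34 for Pla2g2a, 2.13 for Il18, 1.73 for Lypd8 and 1.59 for Pigr, with adjusted p from 0.00885 to 0.0417. Without colitic Tmem173iΔmye replicate 5 these were -4.37, -3.64, 4.42, 1.48, 1.51 and 1.35, with adjusted p from 0.00216 to 0.0489. The size for Pla2g2a rested on few reads, with 7, 3 and 10 counts in colitic Tmem173fl/fl replicates 1, 2 and 3. In the fit of all 12 libraries 3 of 9 colonocyte and 2 of 13 epithelial genes were called higher. There 3 of 8 stromal genes were called lower and none of 8 neutrophil genes was called. The part of these cells was not tested.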

How the results depend on the processing

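In Tmem173fl/fl mice 4 members (DESeq2) to 7 members (epithelial scaling) were called, beside 5303 and 11649 of all genes against 5422 in the reported fit. When a library was left out 5 to 7 members were called, beside 4763 to 5570 genes. Between colitic genotypes 0 were called under each setting run, beside 678 genes in the reported fit. The counts over all genes were 27 to 1598 when a library was left out and 71 to 5369 under other settings. In Tmem173iΔmye mice the 0 members called with DSS, beside 501 genes, became 5 with the replicate block (1369 genes), 4 by unadjusted p (2193), 4 with no filter on low values (1013), 4 with the acinar covariate (776), 3 with epithelial scaling (1246), 1 in DESeq2 (1137), 1 in a single fit of 12 libraries (981), and 0 to 5 when a library was left out (52 to 1470). Replicates 3 and 5 have no partner under the block, so replicate 5 adds nothing there. Same-numbered libraries deviated from their group means with r from -0.12 to 0.12, which gave no sign of strong pairing. Such values cannot show whether same-numbered samples were kept or handled together. Without DSS, Reg3g made 1 call between genotypes by unadjusted p (328 genes), 1 with no filter (68) and 1 with the replicate block (94), and Reg4 made 1 call for the difference in DSS response by unadjusted p (2747) and 1 with no filter (1228).

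Some members that were not called changed direction between settings, and the cause was not tested. Others kept their direction under each setting run, such as Reg3a, Reg3b, Reg3d and Reg3g with DSS in Tmem173iΔmye mice. Between untreated genotypes Reg2 turned to -0.0029 with epithelial scaling, and Reg1 to 0.56 and Reg3a to 0.21 in limma with a pseudocount of 0.1. Between colitic genotypes Reg3g turned to 0.16 with the replicate block, and with the acinar covariate Reg1 was 0.47, Reg3a 0.36, Reg3b 0.66, Reg3d 0.39, Reg3g 0.73 and Reg4 -0.45. For the difference in DSS response Reg3d turned to -0.41 with epithelial scaling, Reg1 to -4.56 and Reg3d to -2.67 in limma with a pseudocount of 0.1, to -2.65 and -1.65 with a pseudocount of 1, and Reg3a to 0.24 with the acinar covariate. Leaving out a library gave these ranges of log2 change. With DSS in Tmem173iΔmye mice they were -2.17 to 8.24 for Reg1, -0.92 to 10.34 for Reg2, 3.06 to 9.06 for Reg3a, 2.90 to 11.15 for Reg3d and -3.19 to 0.0087 for Reg4. For Reg3b and Reg3g they were 5.91 to 7.43 and 3.34 to 5.69. Between untreated genotypes they were -6.15 to 8.04 for Reg1, -5.63 to 10.17 for Reg2, -3.04 to 5.59 for Reg3a and -6.96 to 5.92 for Reg3d. For Reg3b, Reg3g and Reg4 they were 0.32 to 1.56, 0.95 to 2.38 and -0.97 to -0.26. Between colitic genotypes they were -6.06 to 0.78 for Reg1, -4.37 to 0.14 for Reg3a, -1.44 to 0.013 for Reg3b, -1.62 to 0.34 for Reg3g and -0.20 to 3.04 for Reg4. For the difference in DSS response they were -8.32 to 5.89 for Reg1, -11.3 to 4.59 for Reg2, -6.50 to 2.25 for Reg3a and -6.77 to 6.28 for Reg3d.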
